A study of Mus musculus with 16 samples.

Results

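Jejunal and ileal GFP+ cells of Lgr5-EGFP mice were compared by RNA-Seq over 9 libraries, of 16 in the series, to ask which genes differ between the cells of the 2 segments. In these mice green fluorescent protein is made from the Lgr5 gene, so that sorting GFP+ epithelial cells enriches intestinal stem cells (ISCs) and early progenitors. The mice had been fed a diet with 60% fat for 16 weeks and were studied 4 weeks after vertical sleeve gastrectomy (VSG, removal of most of the stomach) or a sham operation, with tissue taken 15 minutes after they were given a liquid meal, from 6 cm of each segment. The jejunum gave 3 VSG libraries (replicates 2, 3 and 4) and 2 sham libraries, and the ileum gave 2 VSG libraries (replicates 4 and 5) and 2 sham libraries. A replicate number names a mouse within its surgery, and VSG replicate 4 and both sham mice gave a library of each segment, so the 9 libraries came from 6 mice. All mice carried the reporter and ate the same diet, and no library came from an unoperated animal.

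The jejunum and ileum share a lining of crypts and villi but divide their work. The jejunum takes up most dietary fat, sugar and amino acids, while the terminal ileum reclaims conjugated bile acids and the cobalamin of vitamin B12. Stem cells at the crypt base renew each segment locally, and stem cells taken from a segment are known to keep part of its identity.

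A further library, labelled jejunum VSG replicate 1, was left out of the main comparison because of its levels of ileal genes. Its rescaled normalized counts were 151330.0 for Fabp6, 4523 for Slc10a2 and 10619 for Fgf15, against at most 227, 115 and 285 in the other 5 jejunal libraries. The separation of these genes between the groups therefore depends on that choice, and the genes whose call ends when the library is added are named with the calls below. Over the 302 genes described below, it lay nearer the ileal than the jejunal median, on the log2 scale, for 94 of the 123 genes higher in the ileum and for 62 of the 179 higher in the jejunum. The 6 duodenal libraries lay nearer the jejunal median for 118 to 122 of those 123 genes and for 162 to 178 of those 179. Of the 179, 136 were listed at 0 in 3 or 4 ileal libraries, so their ileal median was 0. A library in which such a gene is detected then tends to lie nearer the jejunal median, whatever its segment.

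Values are the authors' normalized counts, which had been scaled within each segment and were rescaled here over all 9 libraries, so a level set across segments rests on that rescaling. The smallest steps between values implied 23.8 M to 57.8 M reads per jejunal library and 10.9 M to 36.4 M per ileal library, although under 50% of the values above 0 were whole multiples of such a step. What 3 reads were worth, the most that a value of 0 allows by counting error alone, was 1.37 to 3.38 rescaled counts in the jejunum and 2.33 to 8.22 in the ileum. Of the 15419 genes tested, 9.29% to 23.9% were listed at 0 in a jejunal library and 18.3% to 35.7% in an ileal library. Of the 12375 genes with a mean above 50, 40.2% were listed at 0 in at least 1 ileal library and 16.3% in at least 1 jejunal library. The mitochondrial gene mt-Nd3 was listed at 0 in both ileal sham libraries and at 7119 to 16798 in the other 7, so a 0 in these files need not be a gene that is silent.

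**Figure D1:**
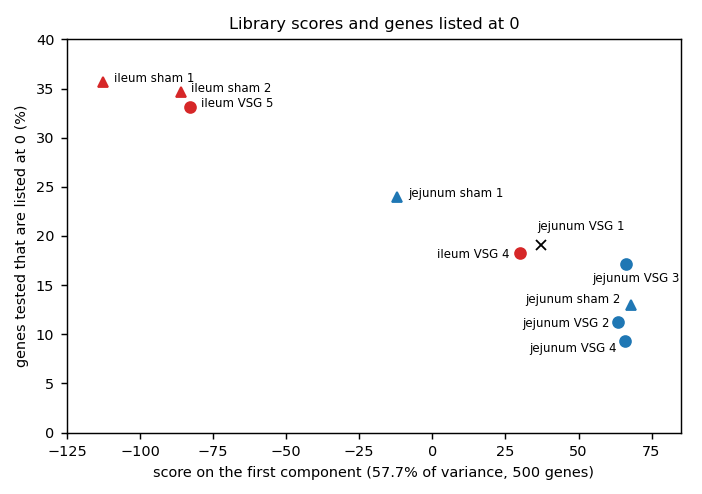
Score of each library on the first principal component of the 500 most variable genes (x axis, 57.7% of the variance) against the percent of tested genes listed at 0 (y axis). Blue marks jejunal and red ileal libraries, circles VSG and triangles sham, and the cross is the library left out. Jejunal sham replicate 1, ileal VSG replicate 4 and the library left out lie between the other 4 jejunal libraries at the right and the other 3 ileal libraries at the left.

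On the first component jejunal VSG replicates 2 to 4 and sham replicate 2 scored 63.7 to 68.0, and ileal VSG replicate 5 and the 2 ileal sham libraries scored -113 to -82.9. Jejunal sham replicate 1 scored -12.0 and ileal VSG replicate 4 scored 30.0. Jejunum VSG replicate 1, placed on the component without shaping it, scored 37.0. The component ran with the share of genes at 0, and its part in the segment difference was not tested.

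With surgery as a covariate, limma called 388 of 15419 genes (2.52%) at an unadjusted p under 0.05, an adjusted p under 0.2, a log2 difference above 0.5 in size and a mean level above 50. Of these, 157 (1.02%) were higher in the ileum and 231 (1.50%) in the jejunum. Under quantile normalization the split was 144 and 133, and with the deposited values left on their own scales it was 100 and 4095. The groups did not overlap for 813 genes (5.27%), 309 higher in the ileum (2.00%) and 504 in the jejunum (3.27%), and 302 genes (1.96%) were both called and non-overlapping, 123 higher in the ileum (0.798%) and 179 in the jejunum (1.16%). The median difference of all tested genes was -0.50 on the log2 scale (ileum minus jejunum), and quantile normalization brought it to -0.07.

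The calls depended on a few libraries and on the handling of mice. With the mouse as a block, limma called 0 genes, 1052 had an unadjusted p under 0.05, and the 388 genes had adjusted p-values of 0.581 to 0.613, with 2 residual degrees of freedom. Every one of the 388 kept its direction in that fit. Leaving out 1 library at a time gave 89 (without jejunal VSG replicate 4) to 1303 calls (without ileal VSG replicate 4), and 76 genes were called in the main fit and all 9 of these fits, 56 higher in the ileum and 20 in the jejunum. At an adjusted p under 0.05, 68 genes (0.441%) were called. With jejunum VSG replicate 1 added, 413 genes (2.65%) were called, 284 of them among the 388, and 172 of the 302 stayed called and non-overlapping. Some of the called genes described below were not called with that library, at adjusted p-values of 0.201 (Guca2a) to 0.825 (Ugt2a3). Those higher in the ileum were Hoxb9, Mep1b, Guca2a, Slc4a4, Fdps, Vnn1, Agpat2, Pyy, Gcg, Pik3ap1, Ttc36 and Ereg. Those higher in the jejunum were Apoc3, Rbp2, Nr1i3, Cyp2b10, Ugt2a3, Gip, Chgb, Cdc6 and Pgc.

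**Figure D2:**
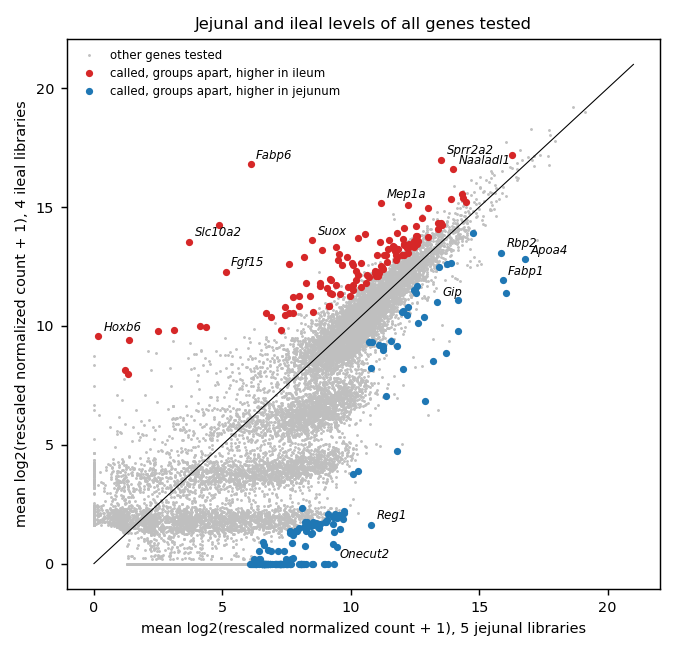
Mean log2(rescaled normalized count + 1) of each tested gene over 5 jejunal libraries (x axis) and 4 ileal libraries (y axis), with the line of equality. The 123 genes called higher in the ileum without overlap (red) lie mostly at moderate or high levels, while many of the 179 called higher in the jejunum (blue) lie at or near 0 on the ileal axis.

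The genes higher in one segment differed in how they were measured in the other. Among the 179 genes higher in the jejunum, 79 were listed at 0 in all 4 ileal libraries, 57 in 3 and 34 in none. Those 79 reached the thresholds on mean level through their jejunal values alone, so their calls and adjusted p-values draw on the values that selected them. Among the 123 genes higher in the ileum, 112 were above 0 in every jejunal library.

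Genes of bile acid uptake were higher in the ileum. Enterocytes of the ileum import bile acids through the apical transporter encoded by Slc10a2, carry them on the binding protein encoded by Fabp6, and export them through the dimer of Slc51a and Slc51b. The nuclear receptor FXR (Nr1h4) senses bile acids in these cells and induces Fgf15, a hormone that lowers bile acid synthesis in the liver. Of 10 tested genes in the bile acid transport and FXR target list, 6 were called higher in the ileum and 0 in the jejunum. Among all genes tested, 1.02% were called higher in the ileum, 0.798% also without overlap. All 6 list genes were without overlap, and the list median was 2.44 on the log2 scale. Jejunum VSG replicate 1 was left out for its levels of 3 of these genes and lay inside or above the ileal range for all 6, so their separation draws on values that set the groups. With it the 6 genes were still called, with overlapping groups.

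Fabp6 (chr11:43596049-43601540) was at 121, 174 and 12.3 (VSG) and 227 and 22.6 (sham) in the jejunum, and at 93498 and 37869 (VSG) and 275054 and 179309 (sham) in the ileum. All 4 ileal libraries stood above all 5 jejunal libraries, with a log2 difference of 10.62 ± 0.85 (SE, n = 5 and 4, limma adjusted p = 2.47e-04). With the mouse as a block the difference was 11.97 (adjusted p = 0.581), and with jejunum VSG replicate 1 it was 8.98 (adjusted p = 0.116) with overlapping groups. Within a mouse the ileal value was higher by 12.78, 10.24 and 12.89 log2 units in VSG replicate 4 and sham replicates 1 and 2.

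Slc10a2 (chr8:5083219-5105351) was listed at 0, 0 and 46.6 after VSG and at 68.8 and 115 after sham surgery in the jejunum. In the ileum it was at 10019 and 3806 after VSG and at 19283 and 27860.2 after sham surgery. The ileal libraries were thus all higher, by 9.50 ± 1.25 on the log2 scale (adjusted p = 0.00596), and by 8.11 with jejunum VSG replicate 1 (adjusted p = 0.13).

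Slc51a had levels of 3617 to 7400.2 in the jejunum and 27871 to 41825 in the ileum, and Slc51b had 409 to 1987 and 4777 to 14018. Neither gene overlapped, with log2 differences of 2.80 ± 0.24 (adjusted p = 3.57e-04) for Slc51a and 3.02 ± 0.48 (adjusted p = 0.0211) for Slc51b.

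Nr1h4 was at 1228, 1298, 1367, 735 and 1415 in the jejunum and at 5987, 2892, 7208 and 5016 in the ileum, a log2 difference of 2.08 ± 0.38 (adjusted p = 0.0398). Fgf15 was at 285, 39.9, 111, 0 and 38.6 in the jejunum and at 3192, 4050.2, 6408 and 7421 in the ileum, a difference of 7.34 ± 1.31 (adjusted p = 0.0393). Both genes were higher in every ileal library. With jejunum VSG replicate 1, which stood above every ileal library for Fgf15, the Fgf15 difference was 6.27 (adjusted p = 0.172). With the mouse as a block the differences were 2.42 for Nr1h4 (adjusted p = 0.581) and 8.34 for Fgf15 (adjusted p = 0.586).

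The other tested members were not called. Nr0b2, which encodes the FXR-induced repressor SHP, was listed at 0 in all 4 ileal libraries and in 2 of the jejunal ones, with a highest level of 93.8. The export pumps Abcc2 and Abcc3 had log2 differences of -0.83 ± 0.56 (adjusted p = 0.498) and -0.58 ± 0.37 (adjusted p = 0.471). Cubn, the ileal receptor for the vitamin B12 carrier, was called higher in the ileum (12549.9 to 49732 against 1194 to 18786, a log2 difference of 2.84 ± 0.41, adjusted p = 0.0115), with jejunal sham replicate 1 inside the ileal range. Its partner Amn had a difference of 0.96 ± 0.31 and was not called (adjusted p = 0.231).

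The promoters of 4 called genes are shown as examples of both directions, Fabp6 and Slc10a2 of bile acid uptake, Gip of the hormones and Rbp2 of retinol transport. They were not chosen by size of difference. Each run is the 250 bases before the RefSeq start of the gene (GRCm38.p6), 5′ to 3′ on the gene's strand. Capitals mark matches on either strand to the letters AGATAA or TGATAA, known to bind GATA factors, and TTTATG or TTTATTG, known to bind CDX factors.
Fabp6, chr11:43601563-43601812, minus strand: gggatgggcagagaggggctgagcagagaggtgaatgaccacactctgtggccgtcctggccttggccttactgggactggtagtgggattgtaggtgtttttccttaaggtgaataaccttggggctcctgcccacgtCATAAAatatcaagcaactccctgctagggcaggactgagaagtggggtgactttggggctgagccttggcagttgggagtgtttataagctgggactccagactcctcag
Slc10a2, chr8:5105288-5105537, minus strand: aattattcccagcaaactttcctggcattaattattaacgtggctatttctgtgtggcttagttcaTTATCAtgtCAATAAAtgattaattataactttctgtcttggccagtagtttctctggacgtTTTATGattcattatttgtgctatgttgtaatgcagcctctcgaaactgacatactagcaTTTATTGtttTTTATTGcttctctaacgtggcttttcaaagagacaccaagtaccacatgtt
Gip, chr11:96024295-96024544, plus strand: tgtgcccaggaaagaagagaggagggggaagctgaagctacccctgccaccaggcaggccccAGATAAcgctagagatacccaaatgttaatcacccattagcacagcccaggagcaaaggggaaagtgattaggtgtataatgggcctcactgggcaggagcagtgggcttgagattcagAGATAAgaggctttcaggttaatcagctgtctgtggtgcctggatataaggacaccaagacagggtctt
Rbp2, chr9:98490287-98490536, plus strand: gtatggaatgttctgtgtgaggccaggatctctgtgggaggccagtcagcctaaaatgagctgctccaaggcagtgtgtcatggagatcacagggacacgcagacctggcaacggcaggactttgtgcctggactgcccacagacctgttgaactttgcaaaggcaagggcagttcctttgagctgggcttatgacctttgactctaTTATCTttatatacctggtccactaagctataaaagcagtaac

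Fabp6 held 1 CDX match, Slc10a2 held 1 GATA and 4 CDX matches, Gip held 2 GATA matches and Rbp2 held 1 GATA match. Promoters of other called genes, not shown, did not keep to this split. Fabp1, higher in the jejunum, held 2 CDX and 0 GATA matches, and Mep1a, higher in the ileum, held 2 GATA and 0 CDX matches. Apoc2, higher in the jejunum, held 1 of each, and Slc51a, Slc51b and Apoa4 held none. GATA letters were found in 16.6% of all 32851 promoters, in 17.9% of the 112 promoters of genes called higher in the ileum without overlap and in 11.9% of the 159 promoters of those higher in the jejunum. CDX letters were found in 14.3%, 9.82% and 11.9%. The shares in both gene sets lay near that of all promoters, and a match is a description of letters only.

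Of 19 tested transcription factors of regional identity, 1 was called higher in the ileum and 2 in the jejunum. The shares of all genes tested were 1.02% and 1.50%. Gata5, a zinc finger factor of the gut endoderm, was at 2565, 1714, 1680.5, 2454 and 1656 in the jejunum and at 3982, 4822, 5374 and 6714 in the ileum. All ileal libraries stood above the jejunal ones, by 1.35 ± 0.30 on the log2 scale (adjusted p = 0.097).

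Gata4, which is known to maintain jejunal against ileal identity, was at 3577, 4232, 4972, 4024 and 4327 in the jejunum and at 1307, 1223, 672 and 0 in the ileum. The groups did not overlap, but the gene was not called (log2 difference -4.28 ± 1.60, adjusted p = 0.265). The ileal library at 0, sham replicate 2, was the shallowest of the 9, and 3 reads in it were worth 8.22 rescaled counts. Without that library Gata4 was called with a difference of -2.05 (adjusted p = 0.0339). This was the 1 call among the 9 fits that left out a library, where adjusted p-values reached 0.537. With a pseudocount of 10 Gata4 was called as well (-3.52, adjusted p = 0.167). It was not called with jejunum VSG replicate 1 added (-3.56, adjusted p = 0.355). In the library left out of the jejunum Gata4 was at 248. For Gata6 the difference was -0.74 ± 0.36 (adjusted p = 0.375).

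Onecut2, a cut-homeobox factor, was at 1022, 170.1, 1349, 679 and 756 in the jejunum and at 2928 to 4996 in the duodenum. It was listed at 0 in all 4 ileal libraries and in jejunum VSG replicate 1 (adjusted p = 0.0307). Onecut2 thus reached the thresholds on mean level through its jejunal values alone, and its call draws on them. Creb3l3, a factor of lipid metabolism, was called higher in the jejunum (log2 difference -1.82 ± 0.42, adjusted p = 0.109), although ileal sham replicate 2 (6149) stood above jejunal VSG replicate 3 (5123). The caudal factors did not reach the thresholds, with differences of 0.22 ± 0.31 for Cdx1 and 0.46 ± 0.24 for Cdx2 (adjusted p = 0.735 and 0.394). Hnf4a, at 15208 to 25312 and 23819.8 to 30133, overlapped as well.

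Hox genes mark position along the body axis. Of 36 listed, 14 passed the filter on low values, which a gene could pass through its ileal values alone. Among these 14, 2 were called higher in the ileum and 0 in the jejunum, against 1.02% and 1.50% of all genes tested. Hoxb6 was listed at 0 in 4 jejunal libraries and at 0.722 in the fifth, and at 933, 210.5, 660.5 and 2514 in the ileum (adjusted p = 0.0376). Hoxb9 was listed at 0 in 4 jejunal libraries and at 112 in VSG replicate 3, and at 1438, 232, 1195 and 526 in the ileum (adjusted p = 0.126).

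The summed level of the 36 Hox genes lay between 54.2 and 408 in the jejunum and between 2337 and 5586 in the ileum, and was 5419 in jejunum VSG replicate 1. Hoxb5, Hoxb7 and Hoxb8 were detected in 3 or 4 ileal libraries and at no more than 54 in any jejunal library, without being called (adjusted p = 0.201, 0.224 and 0.231). The called Hox genes and these 3 neighbours all lie in the HoxB cluster on chromosome 11.

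Of 24 tested brush border peptidases and amino acid carriers, 8 were called higher in the ileum and 0 in the jejunum, 4 of the 8 without overlap. Over all genes tested, 1.02% were called higher in the ileum, and 0.798% were also without overlap. The list median was 0.89, against -0.50 over all genes, and 0.13 with the deposited values left on their own scales, where all genes had a median of -1.21.

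Mep1a, the alpha subunit of the metalloprotease meprin, was at 1787, 1966, 2553, 3983 and 1950.5 in the jejunum and at 25599, 28616, 42203 and 57921 in the ileum. No library overlapped, and the log2 difference was 3.91 ± 0.27 (adjusted p = 1.45e-04, 3.87 with the mouse as a block, adjusted p = 0.581). Naaladl1, a dipeptidase relative, was at 12421 to 28119 in the jejunum and 67413 to 153052 in the ileum, a difference of 2.53 ± 0.20 (adjusted p = 2.44e-04). The values of both genes in jejunum VSG replicate 1, 24302 and 62695, lay just below the ileal range.

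The glutamate carrier Slc1a1 and the cystine carrier subunit Slc3a1 were also called without overlap, with log2 differences of 1.91 ± 0.30 (adjusted p = 0.021) and 1.29 ± 0.27 (adjusted p = 0.0718). Anpep, Enpep, Mep1b and Xpnpep2, which encode aminopeptidases and the beta subunit of meprin, were called with overlapping groups, at differences of 0.99 to 2.71. For Anpep, Enpep, Mep1b and Xpnpep2 the highest jejunal value was that of sham replicate 1.

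Ion and small solute transport genes were mixed, with 5 of 27 called higher in the ileum and 1 in the jejunum. Among all genes tested the shares were 1.02% and 1.50%. Tmigd1, an immunoglobulin-domain adhesion protein of the brush border, was at 94.3, 0, 73.6, 153 and 19.1 in the jejunum and at 10468, 8943, 35307 and 41414 in the ileum (log2 difference 9.18 ± 1.24, adjusted p = 0.00727). The phosphate carrier Slc34a2 was at 812 to 2163 in the jejunum and 9149 to 21099.9 in the ileum (3.33 ± 0.33, adjusted p = 7.99e-04). The sulfate carrier Slc13a1 was at 98 to 1281 and 4322 to 17390.1 (4.16 ± 0.53, adjusted p = 0.00518).

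Guca2a, which encodes the peptide guanylin, was higher in the ileum by 1.67 ± 0.27 log2 units (adjusted p = 0.028), and the bicarbonate carrier Slc4a4 by 1.10 ± 0.28 (adjusted p = 0.135). The carbonic anhydrase gene Car2 went the other way, at 179 to 610.3 in the jejunum, at 96.4 in ileal VSG replicate 4 and listed at 0 in the other 3 ileal libraries (adjusted p = 0.185).

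**Figure D3:**
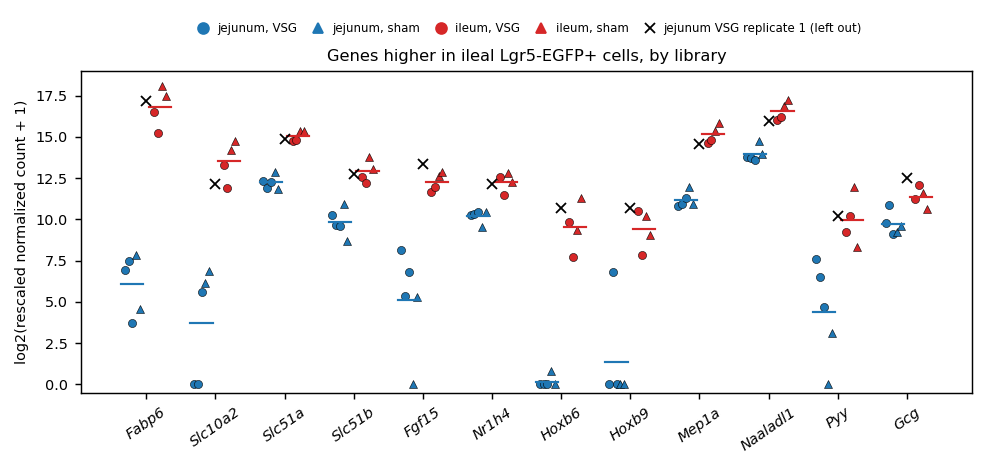
Levels of 12 genes called higher in the ileum, as log2(rescaled normalized count + 1), by library. Blue marks jejunal and red ileal libraries, circles VSG and triangles sham, lines are group means of the log2 values, and the cross is the jejunal library left out. For the genes drawn other than Gcg, every ileal library lies above every jejunal library in the comparison, and the cross lies near or inside the ileal values.

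Genes of cholesterol synthesis formed a further group, listed after the values had been seen and so given no test. SREBP2 induces these genes when sterols in the cell are low. Of 26 tested, 25 had a fitted difference above 0, 7 were called higher in the ileum and 0 in the jejunum, and 11 did not overlap. Over all genes tested, 5278 of 15419 were fitted above 0, 1.02% were called higher in the ileum and 2.00% did not overlap in that direction. The list median was 1.25 on the log2 scale, and 0.49 with the deposited values left on their own scales.

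Hmgcs1, an early enzyme of the pathway, was at 2791, 3790.4, 4680.0, 3071 and 3778 in the jejunum and at 16333, 13903, 16133 and 15902 in the ileum. The ileal values were close together and all above the jejunal ones, by 2.13 ± 0.24 log2 units (adjusted p = 0.00198). Sqle, an epoxidase later in the pathway, was at 1150.4, 1155, 1591, 139 and 1157 in the jejunum and at 5759, 4258, 9476 and 5999.6 in the ileum (2.98 ± 0.63, adjusted p = 0.0859).

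Fdps, a synthase of the isoprenoid steps, and the desaturase gene Scd2 were called too, with log2 differences of 1.31 ± 0.33 and 2.87 ± 0.60. The sum over the 26 genes was 41512 to 47057 in the jejunum, 99404 to 125269 in the ileum and 81672 in jejunum VSG replicate 1.

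Other called genes higher in the ileum came from lists with few calls or from a list drawn up later. The share of all genes tested that was called higher in the ileum was 1.02%. Sprr2a2, a small proline-rich protein of epithelia, was at 4741 to 28166 in the jejunum and 38700.0 to 288297 in the ileum (3.42 ± 0.59, adjusted p = 0.0359), and its near copy Sprr2a3 was at 141 to 894 and 1149.7 to 8193 (3.46 ± 0.71, adjusted p = 0.0718). Reads could be split between such near copies, and this list was also drawn up after the values were seen. Neither gene overlapped between the segments.

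Nos2, the inducible nitric oxide synthase, was at 1112, 426, 684, 107 and 58.6 in the jejunum and at 7715, 3701, 15406 and 7773 in the ileum. It was the 1 gene called among 27 tested genes of the response to microbes (log2 difference 4.84 ± 0.77, adjusted p = 0.0212). Muc3, a membrane mucin, was the 1 gene called among 20 tested goblet and mucus genes, at 5668 to 9856 and 23516 to 42211 (1.89 ± 0.20, adjusted p = 0.0015). Atp2b1, a calcium pump, was higher in the ileum by 1.75 ± 0.29 (adjusted p = 0.028).

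All 7 tested genes of MHC class II antigen presentation had fitted differences above 0 (median 1.28), against 5278 of all 15419 genes tested, and none was called. Cd74 was at 9078 to 32196 in the jejunum and 36504 to 90252 in the ileum, without overlap (1.28 ± 0.40, adjusted p = 0.218). H2-Ab1 overlapped, at 3079 to 11730.5 and 10451 to 35213.

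Some genes of fat and retinoid handling were higher in the jejunum. Of 27 tested genes of lipid absorption, 4 were called higher in the jejunum, all without overlap, and 1 (Agpat2, a lipid acyltransferase) in the ileum. Among all genes tested, 1.50% were called higher in the jejunum (1.16% also without overlap) and 1.02% in the ileum. The lipid list median was -0.41, close to that of all genes. Apoa4, an apolipoprotein of chylomicrons, was at 132668, 66259, 52518, 327589 and 115908 in the jejunum and at 3237, 16989, 8489 and 5552 in the ileum. Every jejunal library stood above every ileal one (log2 difference -4.04 ± 0.52, adjusted p = 0.00519). Within mice with both segments the ileal value differed by -4.02, -5.27 and -4.38, and with the mouse as a block by -4.56 (adjusted p = 0.581).

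Fabp1, the fatty acid binding protein of the proximal gut, was at 57864, 42263, 42265, 139541 and 61542 in the jejunum and at 3595, 7684, 3328 and 2472 in the ileum (-4.00 ± 0.40, adjusted p = 8.29e-04). Apoc2, the activator of lipoprotein lipase, was at 4010.4 to 29076 and 171 to 1222 (-4.74 ± 0.66, adjusted p = 0.00904). Apoc3, its inhibitor, was at 2511 to 12616 and 787 to 2473 (-1.79 ± 0.47, adjusted p = 0.153). In all 4 genes the highest jejunal level was that of sham replicate 1, and jejunum VSG replicate 1 lay below the ileal range in Apoc3 and inside it in the other 3.

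Rbp2, which carries retinol in the enterocyte, was at 61118, 53446, 37292, 137856 and 42440.1 in the jejunum and at 9203, 10659, 6487 and 8658 in the ileum. The groups did not overlap (-2.79 ± 0.34, adjusted p = 0.00405), and with jejunum VSG replicate 1, at 2570.0, the gene was not called (-2.15, adjusted p = 0.251). Adh1, an alcohol dehydrogenase that also oxidizes retinol, was at 10864 to 49759 and 875 to 6329 (-3.11 ± 0.57, adjusted p = 0.0433). These were the 2 genes called among 13 tested retinoid genes, against 1.50% of all genes tested called higher in the jejunum. The retinoid list as a whole did not lean to the jejunum. Its median was 0.08, against -0.50, and 7 of 13 were fitted above 0, against 5278 of 15419. Bco1 was higher in the ileum without overlap but was not called (4.10, adjusted p = 0.29).

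Detoxifying enzymes followed, with 6 of 56 called higher in the jejunum and 0 in the ileum, 4 of them without overlap. Over all genes tested, 1.50% were called higher in the jejunum, and 1.16% were also without overlap. The list median was -0.84 against -0.50 for all genes, with 42 of 56 fitted below 0 against 10141 of 15419. Gstm3, a glutathione transferase, was at 1709, 1846, 2039, 5657 and 3442 in the jejunum and at 62.9, 126, 239 and 162 in the ileum (-4.42 ± 0.50, adjusted p = 0.00198). Nr1i3, the xenobiotic receptor CAR, was at 1561 to 5756 and 329 to 1389 (-2.09 ± 0.55, adjusted p = 0.156, and -0.84 with adjusted p = 0.798 when jejunum VSG replicate 1, at 4.28, is added), and its known target Cyp2b10 was at 488 to 5592 and 0 to 643 (adjusted p = 0.177). Akr1b10, a reductase, was at 152 to 431 in the jejunum and listed at 0 in all 4 ileal libraries, so only its jejunal values brought it over the thresholds on mean level.

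Targets of the fatty acid sensor PPARα were a list drawn up after the values were seen. Of 28 tested, 4 were called higher in the jejunum and 1 (Vnn1, a pantetheinase) in the ileum. The shares of all genes tested were 1.50% and 1.02%. Ephx2, an epoxide hydrolase, was at 7532, 4355, 5083, 18121 and 7343 in the jejunum and at 1605, 1099, 629 and 2773 in the ileum (-2.54 ± 0.48, adjusted p = 0.0485). Cyp4a10, a fatty acid hydroxylase, was at 378, 231, 96.3, 1783 and 418 in the jejunum and listed at 0 in all 4 ileal libraries (adjusted p = 0.0513). Only its jejunal values brought Cyp4a10 over the thresholds on mean level. Both genes were again highest in jejunal sham replicate 1.

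Of 14 tested genes of sugar digestion and uptake, limma called 0 in either direction, and 2 were called higher in the jejunum with a pseudocount of 10. The sucrase gene Sis was at 66399 to 212582 and 75689 to 182718 (0.34 ± 0.34, adjusted p = 0.617), and the glucose carrier Slc5a1 at 32892 to 92503 and 33771 to 67156 (0.09 ± 0.30, adjusted p = 0.904). The lactase gene Lct had a difference of -1.97 ± 0.60 with overlapping groups (adjusted p = 0.212).

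**Figure D4:**
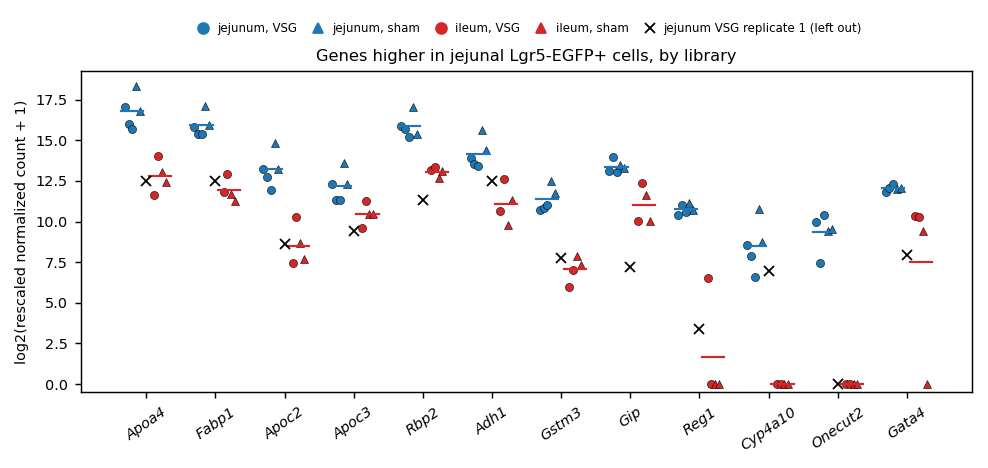
Levels of 12 genes higher in the jejunum, as log2(rescaled normalized count + 1), by library, drawn as in the plot of genes higher in the ileum. In all 12 genes every jejunal library in the comparison lies above every ileal library, Cyp4a10 and Onecut2 are listed at 0 in all 4 ileal libraries, and Gata4, drawn last, was not called.

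Gut hormones, made by enteroendocrine cells that arise from these progenitors, split by segment. Of 11 tested, 2 were called higher in the ileum and 2 in the jejunum, against 1.02% and 1.50% of all genes tested. Pyy, the peptide YY gene, was at 189, 89.6, 25.1, 0 and 7.65 in the jejunum and at 595, 1183, 4026 and 326 in the ileum. The groups did not overlap (5.80 ± 1.53, adjusted p = 0.156), and with jejunum VSG replicate 1, at 1158, the gene was not called (5.11, adjusted p = 0.207).

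Gcg, which encodes GLP-1, was at 889, 1846, 557, 599 and 779 in the jejunum and at 2395, 4254, 3093 and 1569 in the ileum (1.70 ± 0.46, adjusted p = 0.16). Jejunal VSG replicate 3 lay inside the ileal range, and the gene was not called with jejunum VSG replicate 1 (5733). Gip, the incretin of the proximal gut, was at 8933, 15783, 8449.6, 11391 and 9873 in the jejunum and at 1049.7, 5339.5, 3194 and 1045 in the ileum. All jejunal libraries were higher (-2.33 ± 0.48, adjusted p = 0.0718), but jejunum VSG replicate 1 was at 143, and with it Gip was not called (-1.44, adjusted p = 0.539).

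Ghrl (ghrelin) was at 149.8 to 919 in the jejunum, at 160.1 in ileal VSG replicate 4 and listed at 0 in the other 3 (adjusted p = 0.162). Cck was at 510.2 to 944 in the jejunum and at 162, 0, 0 and 153 in the ileum without being called (adjusted p = 0.223). Nts and Sct overlapped. The granin gene Chgb was called higher in the jejunum with overlap, at 3162 to 16187 and 973 to 4769 (-1.74 ± 0.39, adjusted p = 0.0982).

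Stem cell and division genes were checked because the libraries are labelled as Lgr5+ cells. Lgr5 (chr10:115450311-115587780) was at 330.3, 1298 and 491 (VSG) and 0 and 1622 (sham) in the jejunum, and at 864, 546, 0 and 201 in the ileum. It was thus listed at 0 in sham replicate 1 of each segment, and the segments overlapped (-0.57 ± 2.11, adjusted p = 0.911). In bulk libraries, fewer cells of a type and less RNA per cell cannot be told apart.

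Of 28 tested stem cell markers, 2 were called higher in the jejunum and 0 in the ileum, against 1.50% and 1.02% of all genes tested. The list median was -1.97, against -0.50, and 26 of 28 were fitted below 0, against 10141 of 15419. In this list 14 were listed at 0 in at least 1 ileal library, against 7927 of all genes tested. Olfm4, a marker of crypt base cells, was at 22744, 23145, 26354, 5326 and 23955 in the jejunum and at 9821, 6949.9, 1048 and 3502 in the ileum. Jejunal sham replicate 1 lay inside the ileal range, and the gene was called (adjusted p = 0.114). Smoc2 and Sox9 overlapped and were not called.

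Of 30 tested proliferation genes, 4 were called higher in the jejunum (Cdc6, Mcm3, Nusap1 and Plk1), against 1.50% of all genes tested. Their list median was -3.49, against -0.50, and 29 of 30 were fitted below 0, against 10141 of 15419. In this list 21 were listed at 0 in at least 1 ileal library, against 7927 of all genes tested. Mki67 was at 3557, 5408, 3609, 1017 and 5490.2 in the jejunum and at 1763, 133, 770.2 and 638 in the ileum (-2.48 ± 0.74, adjusted p = 0.209). The summed level of the stem cell list was 26814 to 106024 in the jejunum and 16422 to 57710.0 in the ileum, and that of the proliferation list 13793 to 56223 and 6563 to 23645. The part of this difference in the calls above was not tested.

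Markers of other cell types were counted beside these results. For all genes tested, 1.02% were called higher in the ileum and 1.50% in the jejunum. The 16 enterocyte markers summed to 610454 to 2074311 in the jejunum, highest in sham replicate 1, and to 940163 to 1891844 in the ileum, with 2 called in each direction. Of 20 immune markers 6 were tested and 0 were called, and they summed to 319.6 to 757 in the jejunum, 218 to 515 in the ileum and 963 in jejunum VSG replicate 1. Ptprc, which encodes the leukocyte antigen CD45 that the sort selected against, was listed at 0 in 1 jejunal and 3 ileal libraries and was at most 240.5 in the other 5.

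Of 18 markers of stroma, muscle and endothelium, 11 were tested and 0 called, with sums of 98.0 to 639 in the jejunum and 509 to 1202 in the ileum. Among 28 tested Paneth cell genes, Reg1 alone was called, and Lyz1 (lysozyme) overlapped at 8589.9 to 62749.5 and 531 to 32572. In the colon list the 1 gene called was Mep1a, in the stomach list Pgc (15.9 to 270.3 in the jejunum, listed at 0 in the ileum), and in the tuft and pancreas lists limma called none. The 13 mitochondrially encoded genes had 0 calls and sums of 1478953 to 3278237 and 1556087 to 3252253. Among 22 factors and granins of enteroendocrine cells, Isl1 was called beside Chgb, and it was listed at 0 in 3 ileal libraries. The Paneth, enteroendocrine factor and tuft lists had medians of -2.48, -2.30 and -1.64, against -0.50 over all genes tested. Fitted differences were below 0 for 24 of 28, 21 of 22 and 15 of 18 genes, against 10141 of 15419 overall genes tested. In these lists 18, 18 and 14 genes were listed at 0 in at least 1 ileal library. The part of the zeros in this lean was not tested.

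The 10 protein-coding genes with the largest fitted differences in each direction were taken among those called without overlap. The order depends on the pseudocount wherever libraries are at 0: Slc10a2 was fitted above Tmigd1 with a pseudocount of 1 (9.50 and 9.18) and below it with 10 (8.18 and 8.38). In the ileum they were Fabp6, Slc10a2, Hoxb6, Tmigd1, Hoxb9, Fgf15, Pyy and a further 3. Pik3ap1, an adaptor of PI3K signalling, was at 0 to 91.3 in the jejunum and 164 to 1636 in the ileum (7.27 ± 1.84, adjusted p = 0.136). Ereg, the growth factor epiregulin, was at 0 to 86.7 and 452 to 2359.6 (5.68 ± 1.39, adjusted p = 0.126). Ttc36 was at 0 to 62.9 and 347 to 2074 (6.60 ± 1.77, adjusted p = 0.159).

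In the jejunum the 10 were Onecut2, Reg1, Cyp4a10, Ppm1j, Dynlt1f, Chtf18, Zfp97, Nat8f5, Cmc2 and Mxra7. All but Reg1 were listed at 0 in every ileal library, so their order follows the jejunal level and the pseudocount, and no size of difference is given for them. Reg1, a secreted lectin, was at 1331, 2107, 1556, 2272 and 1686 in the jejunum, at 92.5 in ileal VSG replicate 4 and listed at 0 in the other 3 ileal libraries (adjusted p = 0.0327), and at 11581 to 39756 in the duodenum. Ppm1j, a protein phosphatase, was at 158 to 1061 and Dynlt1f, a dynein light chain, at 249 to 1049 in the jejunum. The remaining 5 had jejunal levels between 56.3 and 1365.

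Suox, the mitochondrial sulfite oxidase, was picked out after its values were seen, as a gene outside the lists with a small error. It was at 545, 592, 430.4, 194 and 231 in the jejunum and at 12537, 5893, 16466 and 19499.7 in the ileum. The ileal libraries were all higher (5.12 ± 0.50, adjusted p = 7.76e-04), and jejunum VSG replicate 1 was at 13218.

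**Figure D5:**
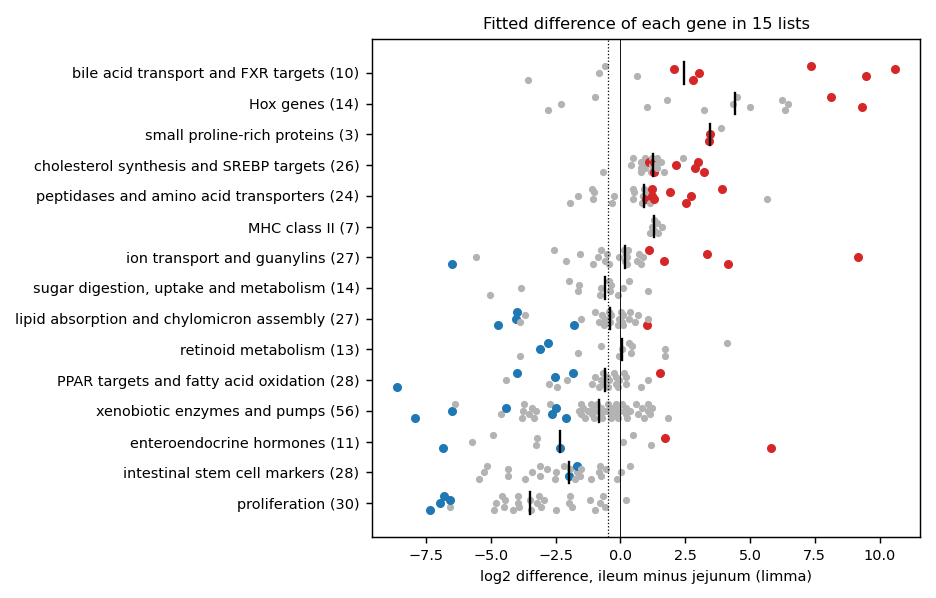
Fitted log2 difference (x axis, ileum minus jejunum, limma) of each tested gene in 15 lists, with the number tested in brackets. Large coloured points were called (red higher in ileum, blue higher in jejunum), grey points were not, black bars are list medians, and the dotted line is the median of all tested genes, -0.50. The medians of the Hox (4.44) and bile acid (2.44) lists lie to the right and that of the proliferation list (-3.49) to the left. All 14 Hox genes that passed the filter were listed at 0 in at least 1 jejunal library, and their median is 2.87 with a pseudocount of 10.

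Surgery was asked about last, as a difference in the segment effect between VSG and sham libraries. limma called 9 of 15419 genes (0.0584%), and 925 had an unadjusted p under 0.05. Of the 9, 7 (Casp6, Fuk, Foxn2, Setd1a, mt-Nd3, Gm7861 and Gm20716) were listed at 0 in both ileal sham libraries. In the fit with the mouse as a block limma called 0, and 648 had an unadjusted p under 0.05. The test compared 3 and 2 jejunal with 2 and 2 ileal libraries.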

How the data were processed

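The authors sorted GFP+ epithelial cells, mapped the reads to mm10 with STAR 2.5.3a, quantified transcripts with Salmon 0.6.0 and normalized with DESeq2, a segment at a time. The deposited signal values are therefore normalized counts. For most genes these are not whole reads divided by 1 factor (37.8% to 49.0% of the values above 0 in the 9 libraries were whole within a tolerance of 0.01), so no count model was run. They also deposited log2 fold changes and p-values of their own VSG against sham comparisons, which were not used. They had excluded libraries with low mapping, 1 sham and 2 VSG ileal and 1 sham jejunal, which were not analysed here.

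The 48440 genes of the segment tables were joined by identifier (48058 matched to GENCODE M21), and the 9 libraries were rescaled by the median of ratios over 7408 genes above 0 in all of them, with factors of 1.27 to 1.38 in the jejunum and 0.756 to 0.778 in the ileum. limma 3.58.1 (R 4.3.3, variance trend on) was fitted to log2(value + 1) of 15419 genes with a mean above 10, with segment and surgery as terms, at the calling thresholds of the study and Benjamini-Hochberg adjustment over all genes tested. Differences are on that log2 scale, which understates changes of low genes, while for genes listed at 0 in some libraries the fitted difference can exceed the ratio of the group means. For a single gene, 5 against 4 libraries allow an exact two-sided permutation p of 0.0159 at the least. The steps were run on simulated counts drawn independently for each library, without mouse pairing, so that run did not test the handling of mice.

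Each library is 1 segment of 1 mouse. The 3 mice with both segments pair libraries by animal, so the block fit is given beside the calls. Deviations of their libraries from the segment means correlated at 0.125, 0.116 and 0.0049, against -0.229 to 0.103 for libraries of different mice. With the surgery effect also taken out, the same-mouse values were 0.0248, 0.0579 and 0.0579, against -0.158 to 0.158 for different mice.

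Named genes are Lgr5, the 10 largest differences in each direction, up to 4 called genes per list and direction, members of the bile acid, regional factor, stem cell and hormone lists, and others said to be chosen later. Members and lists (27, plus 3 drawn up after the values were seen) were chosen with earlier results of these data known. Sequences are from RefSeq. Alternatives were other pseudocounts, filters, scalings and thresholds, the block, each surgery alone and leaving out each library. Figures used Python 3.11.15 with matplotlib 3.10.9. Some members of the lists are not reported here.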

Additional observations from a re-analysis of the deposited data

Results flagged for a closer look

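The library labelled jejunum VSG replicate 1, which the comparison does not use, had 151330.0 rescaled normalized counts of Fabp6, 4523 of Slc10a2 and 10619 of Fgf15, far above the 5 jejunal libraries used.

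Of 101 groups of 4 or 5 libraries tested, 21 had a highest or lowest library set apart from the others on the scale of rescaled counts. A rate of about 1 in 20 holds for independent groups of normally spread values. Counts off the log2 scale need not be spread so, and the number expected here is not known. These genes share the same libraries, and in 7 of the 21 (Reg1, Hoxb6, Hoxb9, Isl1, Mcm3, Cdc6 and Car2) every other library of the group was listed at 0. In 12 of them it was jejunal sham replicate 1, with levels of 1783 for Cyp4a10, 1365 for Nat8f5, 29076 for Apoc2, 139541 for Fabp1, 12616 for Apoc3, 28119 for Naaladl1, 49759 for Adh1, 137856 for Rbp2, 7914 for Ugt2a3, 5756 for Nr1i3, 18121 for Ephx2 and 0.722 for Hoxb6, which is below what 1 read was worth in that library (0.810). Ileal VSG replicate 4 was apart for Reg1 (92.5), Isl1 (41.2), Mcm3 (373) and Car2 (96.4), where the other 3 ileal libraries were listed at 0, and ileal VSG replicate 5 for Cdc6 (133), again against zeros, and Pik3ap1 (164). Jejunal VSG replicate 3 was apart for Mxra7 (644) and Hoxb9 (112), and jejunal VSG replicate 4 for Pik3ap1 (91.3).

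The segment difference itself differed between VSG and sham libraries for 9 genes (limma, interaction term). A fit with the mouse as a block called 0 in limma (648 at an unadjusted p under 0.05), and leaving out 1 library gave 2 to 1440. The adjusted p was 0.104 for Casp6, Fuk, Gm20716 and Gm10925, 0.158 for Foxn2, Setd1a and Gm7861, and 1.88e-04 for mt-Nd3 and AY036118. Of these, 7 were listed at 0 in both ileal sham libraries. Gm10925 was at 1151 and 3110.2 there against 62999.6 to 196726 in the other 7 libraries. AY036118 was listed at 0 in both jejunal sham and both ileal VSG libraries and was at 5815 to 62109.5 in the other 5.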

How the results depend on the processing

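Through all alternatives, 91 genes were followed, 89 called genes with Lgr5 and Gata4, and among these Lgr5 was the 1 that changed direction: its log2 difference was 0.24 in the VSG libraries and -2.30 to 1.49 leaving out 1 library (1.49 without jejunal sham replicate 2, 0.98 without ileal sham replicate 1), against -0.57. Of the 388 calls, 5 changed direction with the deposited values on their own scales and 0 in the other alternatives. Uncalled genes outside these 91 turned too, such as Abcc2 (0.36 in the VSG libraries) and Cdx1 (-0.07 in the sham libraries). Calls (and calls without overlap) were 803 (457) with a filter at a mean of 50 and 190 (174) with none, 277 (188) with quantile normalization, 4195 (1890) with the deposited values on their own scales, 612 (339) without a trend, 68 (62) at an adjusted p under 0.05, 23 (23) in the VSG libraries and 0 (0) in the sham libraries, where limma gave 1425 genes an unadjusted p under 0.05. With the mouse as a replicate block they were 0 (0), and 89 of the 91 genes lost their call. With the mouse as a random effect they were 428 (322). Leaving out 1 library gave 89 to 1303 (80 to 1023). The fewest came without jejunal VSG replicate 4 (89), sham replicate 2 (100), VSG replicate 3 (101) and VSG replicate 2 (105), then ileal sham replicate 1 (181) and VSG replicate 5 (240), and the most without ileal VSG replicate 4 (1303) and jejunal sham replicate 1 (640). Calls of the interaction were 25 and 3 with pseudocounts of 0.5 and 10, 3 with quantile normalization, 333 without a trend, 48 with jejunum VSG replicate 1, 0 with the mouse as a replicate block, and 2 to 1440 leaving out 1 library. The largest of these came without an ileal sham library or ileal VSG replicate 4. Where leaving out a library left 1 in a group, that library was assumed to vary like the rest. The cause of these changes was not tested. Zeros in deep libraries limit what the jejunal calls can show.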
